A study of Mus musculus with 8 samples.

Results

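The transcripts compared here were those recovered from tagged ribosomes of mouse skin 7 days after wounding (n = 3 libraries) with those recovered 3 days after wounding (n = 2). The 5 libraries are all of those titled for these days among 8 in the series, and the genes are the 18656 of 53700 identifiers that passed an expression filter. The remaining 3 libraries, from uninjured skin, entered the expression filter, the scaling and the estimate of the spread. The comparison itself was between the day 7 and day 3 means. All mice carried AdipoqCreER;R26-NuTRAP and received tamoxifen, the uninjured ones included. AdipoqCreER is a tamoxifen-inducible recombinase expressed from the adiponectin gene, and R26-NuTRAP puts GFP on ribosomes in cells in which the recombinase has acted. The labels give the cell type as adipocyte, and RNA was captured with an antibody to GFP. Wounded mice were 7 to 9 weeks old, with hair follicles in telogen (the resting phase), and received 4 full-thickness wounds of 5 mm. The ages of the uninjured mice, the strain background and the interval between tamoxifen and wounding are not given in the labels. The labels also do not say whether replicates came from separate mice, so the p-values measure only the spread between these libraries, which may be technical.

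Dermal white adipose tissue is a layer of fat cells in the lower part of the skin. After injury its adipocytes release lipid, and lineage tracing has described cells that lose adipocyte character and take up a fibroblast-like state in the wound bed. In skin repair, inflammation precedes the proliferative phase, in which fibroblasts and contractile myofibroblasts lay down collagen and the proteins that organise it. Platelet-derived growth factor (PDGF) acts on fibroblasts and their progenitors through the receptor chains Pdgfra and Pdgfrb, and the series title names this pathway in the adipocyte-to-fibroblast transition.

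The wound libraries held 5308959 to 9585689 counts. Levels are given as CPM, a gene's count relative to its library's total after that total was scaled by the trimmed mean of M values. CPM therefore do not add up to the same total in each library. Over all genes tested they summed to 1088300 and 1021500 at day 3 and to 761040, 863550 and 1055200 at day 7. Summed levels of gene lists are thus not shares of equal totals. The labelled cell type was present in each wound library. Adipoq, the adipokine whose gene drives the recombinase, was at 3329 and 3837 CPM at day 3. At day 7 it was at 1803, 2789 and 5177 CPM. RNA of other cell types was present too, and it varied between replicates of the same day. Krt8, a keratin of simple epithelia such as the mammary duct, reached 329 CPM in day 3 replicate 1 but 0.642 CPM in replicate 2, with 241, 298 and 97.3 CPM at day 7. Krt71, a keratin of the hair follicle's inner root sheath, was at 410 CPM in day 7 replicate 1 against 13.0 and 4.19 CPM in the other 2. On the first principal component of the 5 wound libraries (49.7% of variance), day 7 replicate 3 (-26.59) lay beside day 3 replicate 2 (-23.65) and away from day 7 replicates 1 and 2 (69.60 and 39.24). On the second (22.1%), day 7 replicate 3 (-4.36) lay beside day 7 replicate 2 (-2.75) and away from day 3 replicate 2 (-52.93). The columns of each day begin with a number shared by all its libraries and by no other group. The labels do not say what that number stands for, and it cannot be told apart from the day.

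Between day 3 and day 7, 12 genes rose (0.0643% of those tested) and 4 fell (0.0214%), 0.0858% in either direction, in edgeR's quasi-likelihood test at a Benjamini-Hochberg adjusted p under 0.05. The 12 were Postn, Aspn, Spp1, Cthrc1, Mfap4, Lrrc15, Mmp12, C1qtnf3, C1qtnf2, Prss35, Lrrc17 and Tmem119, of which 3 belong to a list of matricellular proteins and proteoglycans, 1 to matrix proteases and 1 to contractile and myofibroblast genes. Their fold changes ranged from 8.68-fold for Tmem119 to 78.9-fold for Prss35. The 4 that fell were Prtn3, Mybpc2, Sh2d4b and Ampd3. None of the 16 overlapped between the 2 days, but they were selected by a test on these same libraries, so this adds no support. Of all genes tested, 14.2% had every day 7 library above both day 3 libraries and 11.4% had every one below. At an unadjusted p under 0.05 the same test called 2054 genes, 11% of those tested (6.37% higher and 4.64% lower).

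**Figure D1:**
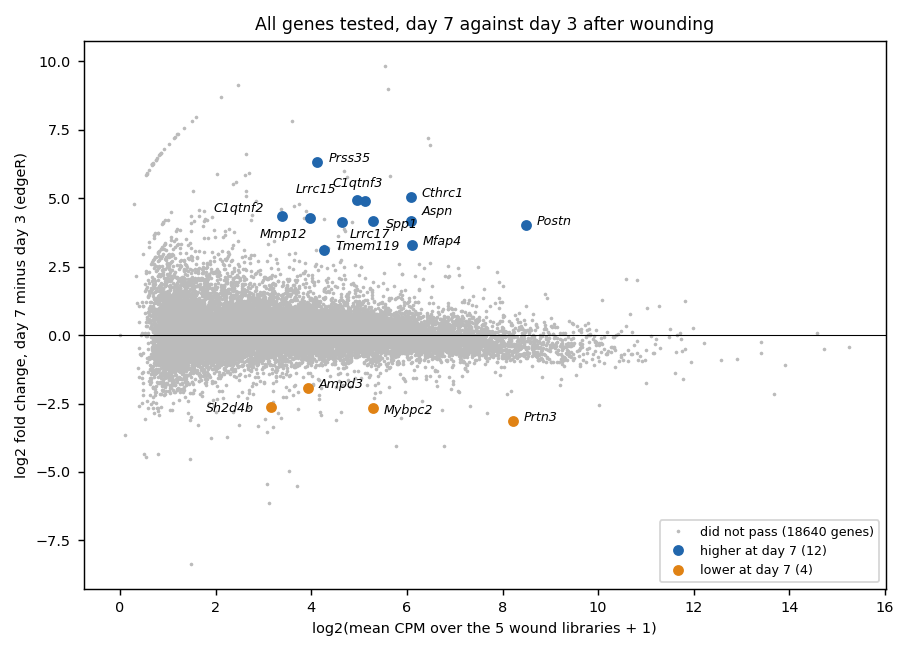
Each point is 1 of the 18656 genes tested. The horizontal axis is the log2 of its mean CPM over the 5 wound libraries plus 1, and the vertical axis is edgeR's log2 fold change of day 7 over day 3. The 12 genes that rose (blue) and the 4 that fell (orange) are named. The curved line of grey points at low CPM and high fold change holds genes with few or no counts at day 3, whose fitted values depend on the prior count.

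Postn, which encodes periostin, a matricellular protein that binds collagen, was the most abundant of the 12 in reads. It was at 32.5 and 37.3 CPM in the day 3 libraries and at 484, 750 and 478 CPM in the day 7 libraries. Every day 7 library was far above both day 3 libraries, and these lay above the uninjured ones, at 15.6, 16.7 and 7.65 CPM. The rise was 16.3-fold (log2 4.03 ± 0.41 SE, edgeR adjusted p = 0.00499). Aspn encodes asporin, a small leucine-rich proteoglycan, and went from 2.88 and 8.55 CPM to 84.3, 138 and 102 CPM (log2 4.18 ± 0.44 SE, edgeR adjusted p = 0.00547). Its day 3 levels were close to those of uninjured skin, at 4.88, 4.72 and 3.90 CPM. Spp1, which encodes the secreted glycoprotein osteopontin, went from 2.67 and 3.96 CPM to 59.2, 85.4 and 39.5 CPM (log2 4.17 ± 0.41 SE, edgeR adjusted p = 0.00499).

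Cthrc1 encodes a collagen triple helix repeat protein secreted by activated fibroblasts, and it had the smallest adjusted p of all genes. Its level was 3.08 and 3.53 CPM at day 3 and 97.0, 141 and 88.4 CPM at day 7, and it was below 1 CPM in all 3 uninjured libraries. The rise was 32.5-fold (log2 5.02 ± 0.33 SE, edgeR adjusted p = 0.000197). Per kilobase of transcript, mean day 7 levels were 68.3 CPM for Cthrc1, 65.6 for Postn, 54.9 for Mfap4, 45.9 for Aspn and 37.2 for Spp1. Cthrc1 was thus slightly above Postn per length, although Postn drew several times more reads. Cthrc1, Postn, Aspn and Spp1 were the only ones of the 16 that passed in the main test and under all 17 alternatives, which include leaving out each library in turn. Their largest adjusted p over those alternatives were 0.00708, 0.0263, 0.0346 and 0.0449. The size of the rise was less firm for Aspn, at log2 3.65 without day 3 replicate 1 and 5.23 without replicate 2. Without 1 wound library, Cthrc1 ranged from 4.80 to 5.15, Postn from 3.79 to 4.14 and Spp1 from 3.88 to 4.52.

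In the deposited table Cthrc1 (ENSMUSG00000054196.8) is at chromosome 15, 38940327 to 38950516, and Postn (ENSMUSG00000027750.17) at chromosome 3, 54268530 to 54298458. Aspn (ENSMUSG00000021388.15) is at chromosome 13, 49697919 to 49721041, and Spp1 (ENSMUSG00000029304.15) at chromosome 5, 104582984 to 104588916. The build of these coordinates is not settled, since the processing notes name mm10 but only 1491 of 52093 identifiers have the same start in the GRCm38 annotation. Spans of Aspn and Spp1 overlap other genes of the table (Cenpp and Gm42793), and the strand setting of the counting is not given in the sources used here. Among the other genes that rose, Mfap4 (with Mapk7), Lrrc17 (Fbxl13) and Mmp12 (Mmp1b) have such overlaps too. Among those that fell, Mybpc2 (Gm44646), Ampd3 (B430319F04Rik and Rnf141) and Prtn3 (Plppr3) have them.

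The remaining 8 genes that rose also stood clear of day 3 in every library but held less firmly. Mfap4, a microfibril-associated glycoprotein of elastic fibres, was at 5.96 and 15.4 CPM at day 3 and at 91.5, 142 and 83.1 CPM at day 7 (log2 3.27 ± 0.44 SE, edgeR adjusted p = 0.0278). Lrrc15, a leucine-rich repeat membrane protein found on myofibroblasts, went from 1.23 and 2.25 CPM to 61.2, 64.3 and 39.5 CPM (log2 4.91 ± 0.66 SE, edgeR adjusted p = 0.0278). Mmp12, the macrophage metalloelastase, went from 0.823 and 1.50 CPM to 25.2, 26.5 and 19.9 CPM (log2 4.29 ± 0.46 SE, edgeR adjusted p = 0.00576). Of these 3, Mmp12 varied least between the day 7 libraries relative to its level, and it passed under 16 of the 17 alternatives. Its single miss came without day 7 replicate 2, at an adjusted p of 0.0528 in edgeR.

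Prss35, a serine protease-like protein, was at 0 and 0.535 CPM at day 3 and at 16.2, 33.2 and 32.6 CPM at day 7 (log2 6.30 ± 0.72 SE, edgeR adjusted p = 0.00868). Its day 3 level rests on 5 counts over both libraries, so the size of its fold change is imprecise. C1qtnf3 and C1qtnf2 encode secreted proteins of the C1q and tumour necrosis factor-related family, to which adiponectin is related. C1qtnf3 went from 0.411 and 2.46 CPM to 32.9, 67.2 and 47.9 CPM, and C1qtnf2 from 0.411 and 0.962 CPM to 9.40, 22.3 and 14.4 CPM (edgeR adjusted p = 0.0355 for each). Both were again highest in day 7 replicate 2. Lrrc17, a secreted leucine-rich repeat protein, went from 2.26 and 2.14 CPM to 23.7, 54.9 and 37.4 CPM (edgeR adjusted p = 0.0129). Tmem119, a membrane protein known from osteoblasts and microglia, went from 1.65 and 4.60 CPM to 24.5, 32.3 and 28.4 CPM (edgeR adjusted p = 0.0415). C1qtnf2 and Tmem119 were the least firm: they passed under 7 and 9 of the 17 alternatives, and leaving out any 1 wound library ended the call for C1qtnf2. Without day 7 replicate 2, the call was lost for each of these 8 genes, with adjusted p from 0.0528 for Mmp12 to 0.192 for C1qtnf2 and Tmem119 in edgeR. Over the 5 fits without 1 wound library, C1qtnf3, Lrrc15 and Tmem119 passed in 1, Mfap4 in 2, Lrrc17 in 3, and Mmp12 and Prss35 in 4. Without day 3 replicate 2, the log2 fold change was 6.87 for C1qtnf3, 5.19 for C1qtnf2, 4.15 for Mfap4 and 4.10 for Tmem119. Without day 3 replicate 1 it was 5.64 for Prss35 and 4.31 for C1qtnf3. Prss35 had 0 counts in that library, so without replicate 2 its fitted value of 10.97 depends on the prior count and is no measure of size.

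**Figure D2:**
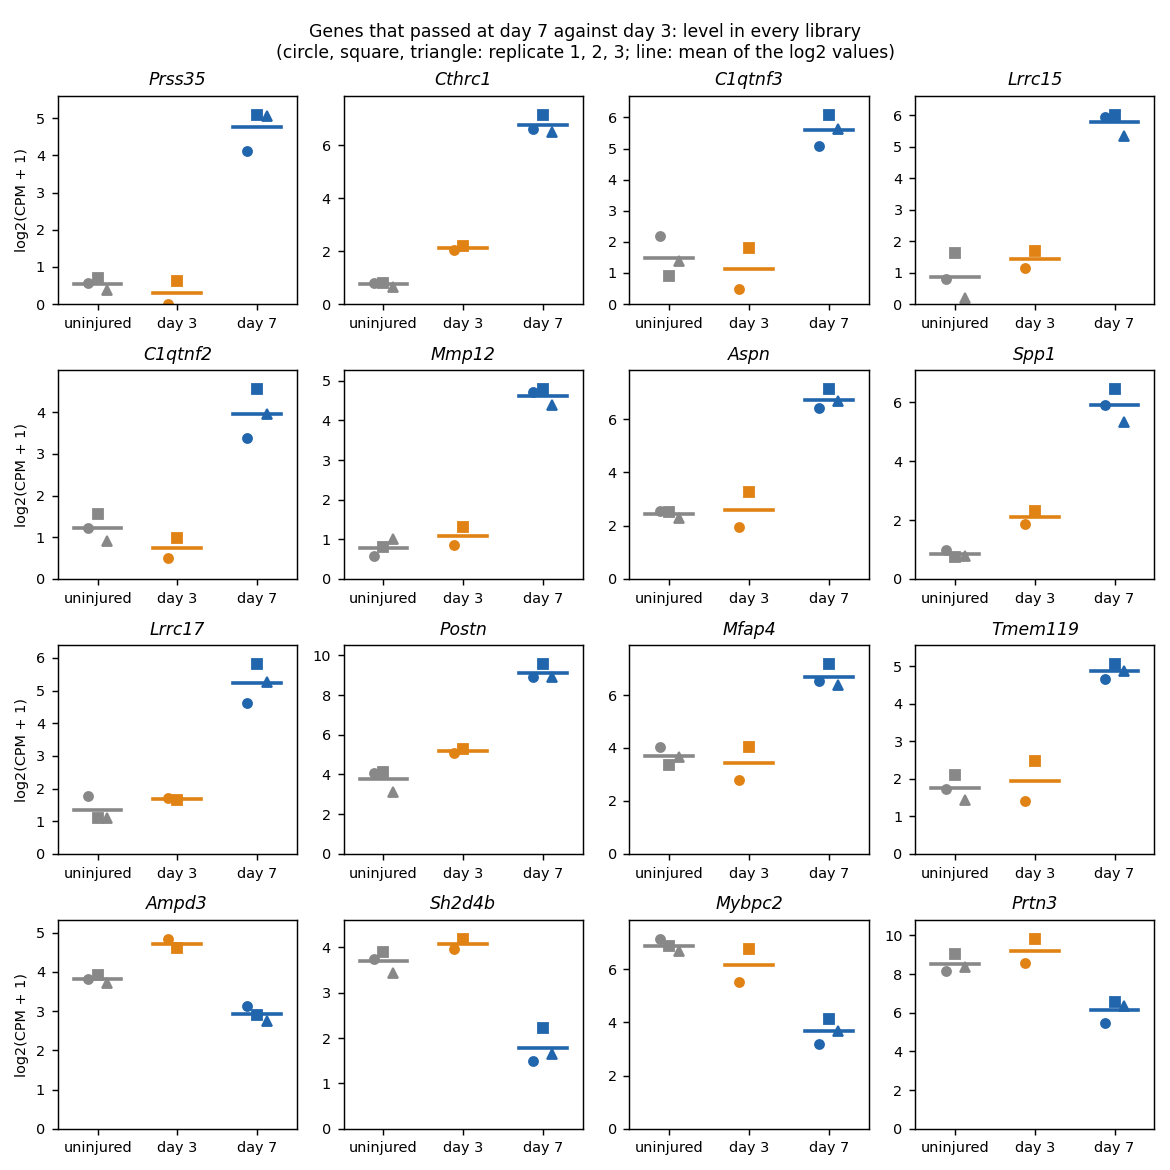
Level of each of the 16 genes in every library, as log2(CPM + 1), with circle, square and triangle for replicates 1, 2 and 3 and a line at the mean of the log2 values. In the upper 12 panels the day 7 libraries lie above all day 3 and uninjured libraries. In the lower 4 panels they lie below all of them.

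Promoters of the 12 genes that rose were read from RefSeq (GRCm38.p6) as the 250 bases before each listed start site. Of the 12 genes, 9 had an entry, with 12 start sites between them. The 5 shown are those of the matricellular and matrix-degrading genes and of Lrrc15 that hold a match, and capitals mark the matched motif letters. The Postn sequence (chr3:54360857-54361106, plus strand, its second start site) and the Spp1 sequence (chr5:104434861-104435110, plus strand, its first start site) were chosen over their other start site, which held no match. The others were Aspn at chr13:49544193-49544442 (plus strand), Lrrc15 at chr16:30283255-30283504 (minus strand) and the second start site of Mmp12 at chr9:7347124-7347373 (plus strand), whose first site held none.
Postn: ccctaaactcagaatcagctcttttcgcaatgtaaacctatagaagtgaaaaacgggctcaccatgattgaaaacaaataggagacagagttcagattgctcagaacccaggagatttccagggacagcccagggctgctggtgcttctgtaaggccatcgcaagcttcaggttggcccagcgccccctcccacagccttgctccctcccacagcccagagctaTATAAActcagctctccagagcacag
Aspn: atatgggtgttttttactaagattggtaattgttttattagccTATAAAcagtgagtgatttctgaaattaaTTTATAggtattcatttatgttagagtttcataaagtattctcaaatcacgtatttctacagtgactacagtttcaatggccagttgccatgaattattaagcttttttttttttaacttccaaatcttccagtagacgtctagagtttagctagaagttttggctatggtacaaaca
Spp1: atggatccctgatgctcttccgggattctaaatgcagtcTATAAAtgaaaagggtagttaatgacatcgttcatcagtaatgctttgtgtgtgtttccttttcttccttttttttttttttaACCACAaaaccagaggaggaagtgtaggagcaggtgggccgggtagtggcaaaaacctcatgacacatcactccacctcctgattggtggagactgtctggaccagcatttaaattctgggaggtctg
Lrrc15: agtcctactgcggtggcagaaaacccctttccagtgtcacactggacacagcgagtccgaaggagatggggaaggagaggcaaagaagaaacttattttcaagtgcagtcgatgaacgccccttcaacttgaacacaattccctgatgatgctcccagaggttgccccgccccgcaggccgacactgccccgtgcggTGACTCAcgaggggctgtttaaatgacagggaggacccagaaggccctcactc
Mmp12: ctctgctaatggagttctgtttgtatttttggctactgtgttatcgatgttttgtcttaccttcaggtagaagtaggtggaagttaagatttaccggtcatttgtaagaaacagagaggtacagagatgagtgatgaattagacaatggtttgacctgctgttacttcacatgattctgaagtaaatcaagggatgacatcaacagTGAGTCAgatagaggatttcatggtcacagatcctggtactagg

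The motifs searched, on both strands, were the AP-1 site TGANTCA, the TATA box TATAAA, the TEAD site GGAATG, the RUNX site TGTGGT and the CArG box of serum response factor. Lrrc15 held the AP-1 letters TGACTCA with the first base at position -53 from the start site, and Mmp12 held TGAGTCA at -44. Those were 2 of the 12 promoters, while 6.75% of all 32851 promoters in the RefSeq table hold an AP-1 match in the same window. The TATA letters were found in 5 of the 12 promoters, against 12.4% of all promoters, but only in Postn, at -26, near the place where a TATA box works. The matches in Aspn lay at -207 and -178 and that in Spp1 at -211. The RUNX letters, written ACCACA on the opposite strand, lay at -128 in Spp1 and were found in 14% of all promoters. TEAD letters were in 1 of the 12 promoters (12.6% of all) and the CArG box in 0 of them (1.47% of all). The 4 genes that fell had 6 promoters, searched in the same way. TEAD letters were in 2 of these 6, RUNX letters in 1, the CArG box in 1, and AP-1 and TATA letters in 0. These are descriptions of letters in a window and not binding sites.

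Of the 4 genes that fell, Prtn3 had by far the highest level. Prtn3 encodes proteinase 3, a serine protease known from neutrophil granules. It was at 377 and 892 CPM at day 3 and at 43.0, 91.9 and 80.5 CPM at day 7, below all 3 uninjured libraries at 289, 520 and 329 CPM. It fell by 3.14 on the log2 scale (± 0.44 SE, edgeR adjusted p = 0.0313). Elane, the gene of neutrophil elastase, is the next gene along chromosome 10 in the deposited table (Prtn3 ends at 79719008 and Elane begins at 79722081). It was at 9.46 and 10.3 CPM at day 3 and at 2.72, 3.36 and 10.7 CPM at day 7. Cfd, the adipocyte serine protease adipsin, follows Elane and was at 54072 and 38600 CPM at day 3 and at 20661, 26036 and 55810 CPM at day 7. Elane and Cfd thus overlapped between the days, and day 7 replicate 3, where both were as high as at day 3, had a Prtn3 level as low as its companions. The span of Prtn3 in the table overlaps Plppr3, so the source of its reads is uncertain.

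Mybpc2, the fast-type myosin-binding protein C of skeletal muscle, was at 45.4 and 109 CPM at day 3 and at 8.15, 16.3 and 11.9 CPM at day 7 (log2 -2.67 ± 0.38 SE, edgeR adjusted p = 0.0355). Ampd3, an AMP deaminase, went from 27.6 and 23.5 CPM to 7.70, 6.53 and 5.75 CPM (log2 -1.93 ± 0.28 SE, edgeR adjusted p = 0.0355). Sh2d4b, an SH2-domain protein, went from 14.6 and 17.1 CPM to 1.81, 3.64 and 2.16 CPM (log2 -2.63 ± 0.39 SE, edgeR adjusted p = 0.0355). Replicates of Ampd3 lay close together on each day, while those of Sh2d4b spread more at day 7, where it rests on 73 counts over 3 libraries. Without day 3 replicate 2, the log2 fold change was -2.38 for Prtn3 and -1.90 for Mybpc2. No fall passed in all 5 fits without 1 wound library: Prtn3 and Mybpc2 passed in 1 of them and Ampd3 and Sh2d4b in 0. In an edgeR fit of the 5 wound libraries alone, 1 gene fell, and it was none of these 4.

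**Figure D3:**
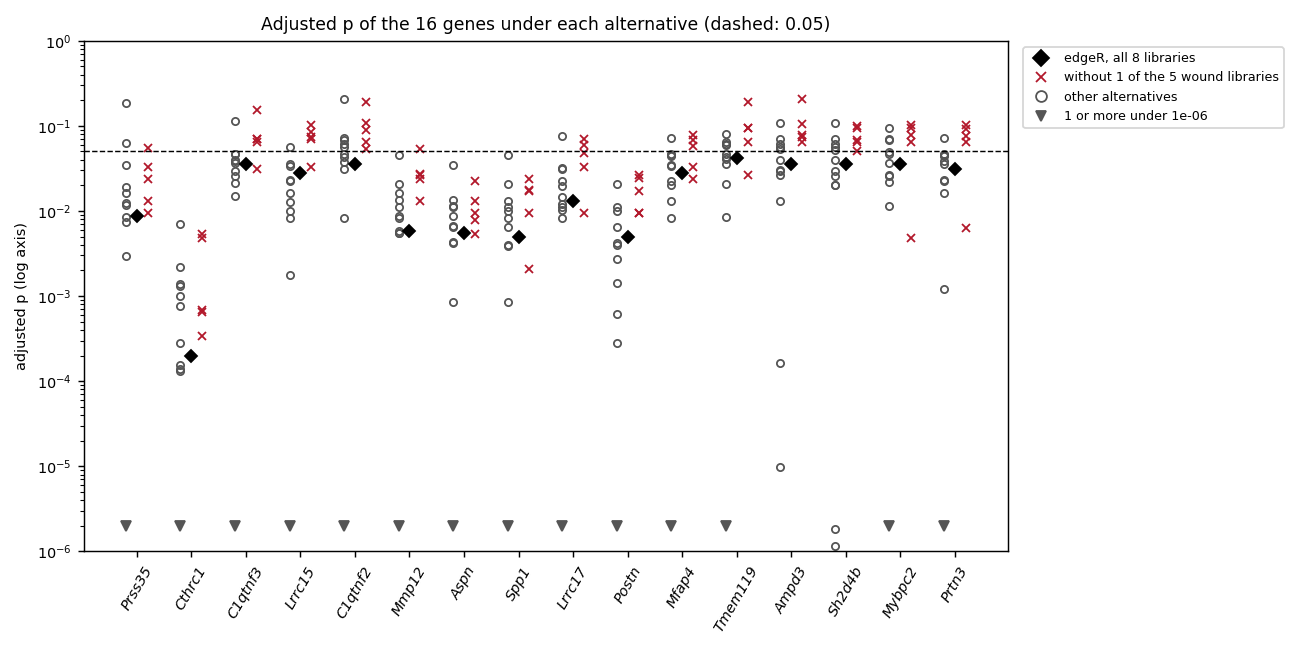
Adjusted p (log axis) of the 16 genes in the main edgeR fit (black diamonds), in the fits without 1 wound library (red crosses) and under the other alternatives (open circles, with a triangle where at least 1 lies under 1e-06). The dashed line is 0.05. All marks of Cthrc1, Aspn, Spp1 and Postn lie under the line, and the other 12 genes each have at least 1 above it.

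The number of genes called depended strongly on the method. DESeq2's Wald test called 147 genes higher (0.813% of 18078 with an adjusted p) and 86 lower (0.476%), with all 16 of the edgeR calls among them. Limma's voom called 6 higher and 1 lower. Leaving out a wound library gave 4 to 23 higher and 0 to 12 lower in edgeR. The members of the gene lists below are therefore described by edgeR's test and, where it called none, also by their DESeq2 calls and their lack of overlap between days. The median log2 fold change over all genes tested was 0.08. Beside the list counts stand the shares over all genes tested: 14.2% lay above day 3 without overlap and 11.4% below. An unadjusted p under 0.05 in edgeR was reached by 11%.

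Genes of fibrillar collagens and collagen assembly were mostly higher at day 7 in value, though 0 of the 32 passed in edgeR (22 at an unadjusted p under 0.05). Their median log2 fold change was 1.30, and 30 of 32 values were positive. Every day 7 library was above both day 3 libraries for 22 of the 32, against 14.2% of all genes tested. DESeq2 called 13 higher and 0 lower. Col1a1, an alpha chain of type I collagen, was at 329 and 736 CPM at day 3 and at 2312, 2919 and 1360 CPM at day 7 (log2 2.04 ± 0.44 SE, edgeR adjusted p = 0.162, DESeq2 adjusted p = 8.15e-05). Col1a2, its partner chain, was at 358 and 925 CPM and then at 2427, 3410 and 1828 CPM. For type I collagen every day 7 library was higher than both day 3 libraries, and both days were above uninjured skin. Col3a1, of type III collagen, overlapped: it was at 592 and 2406 CPM at day 3 and at 2528, 4649 and 2223 CPM at day 7. Fn1, fibronectin, was at 35.4 and 111 CPM and then at 152, 208 and 69.4 CPM, again with overlap. Col8a1 (3.70 and 4.06, then 25.8, 53.8 and 27.4 CPM) and the collagen chaperone Serpinh1 (217 and 289, then 508, 722 and 698 CPM) passed in DESeq2 and are named after their values were seen. Uninjured skin held Serpinh1 at 458, 391 and 413 CPM, above both day 3 libraries and below every day 7 library. Basement membrane genes, by contrast, had a median of 0.46 over 17 members, with 0 calls in edgeR (3 at an unadjusted p under 0.05) or DESeq2.

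Matricellular proteins and proteoglycans held 3 of the 12 genes that rose, Postn, Spp1 and Aspn, among 27 members. Their median log2 fold change was 1.37, and DESeq2 called 9 higher and 0 lower. In every day 7 library 13 lay above day 3 and 1 below, against 14.2% and 11.4% of all genes tested. Sparc, a collagen-binding glycoprotein and the most abundant member, was at 1463 and 2503 CPM at day 3 and at 3263, 5671 and 5149 CPM at day 7 (log2 1.24 ± 0.40 SE, edgeR adjusted p = 0.363). In uninjured skin Sparc was at 3085, 3112 and 2438 CPM. Day 3 replicate 1 thus lay below uninjured skin, replicate 2 within its range and every day 7 library above it. The small proteoglycan biglycan, Bgn, was at 34.6 and 106 CPM and then at 277, 432 and 329 CPM. Decorin, Dcn, a proteoglycan of the same family, was at 109 and 331 CPM and then at 408, 616 and 342 CPM, so day 7 replicate 3 was level with day 3 replicate 2. Tenascin-N (Tnn) was at 0 and 0.535 CPM at day 3 and at 12.2, 10.9 and 7.43 CPM at day 7 (edgeR adjusted p = 0.0649). Ccn4, a Wnt-inducible matricellular protein, was at 0 and 1.18 CPM and then at 13.0, 29.6 and 13.9 CPM. Bgn, Tnn and Ccn4 passed in DESeq2 and are named after their values were seen.

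Among 28 matrix proteases and their inhibitors, Mmp12 rose and the median was 1.28. In every day 7 library 20 lay above day 3 and 1 below, against 14.2% and 11.4% of all genes tested. DESeq2 called 8 higher and 0 lower. Mmp13, the interstitial collagenase, had 0 counts in both day 3 libraries and in all 3 uninjured ones. It was at 9.40, 8.96 and 4.43 CPM at day 7. The mean of these was 16.2-fold above the mean day 3 limit set by 3 counts per library. Mmp13 missed the threshold in edgeR (adjusted p = 0.0645) and passed in DESeq2 (adjusted p = 0.000133). It is named after its values were seen. The membrane-type protease Mmp14, which activates pro-Mmp2, was at 35.8 and 51.2 CPM and then at 213, 253 and 126 CPM (edgeR adjusted p = 0.117). Mmp2 was at 12.3 and 42.4 CPM and then at 88.4, 169 and 90.1 CPM. Mmp3, stromelysin-1, was at 11.5 and 16.8 CPM and then at 34.6, 61.9 and 32.3 CPM (log2 1.59 ± 0.48 SE, edgeR adjusted p = 0.351). For each of these 3 proteases the days did not overlap, although edgeR's test was missed.

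**Figure D4:**
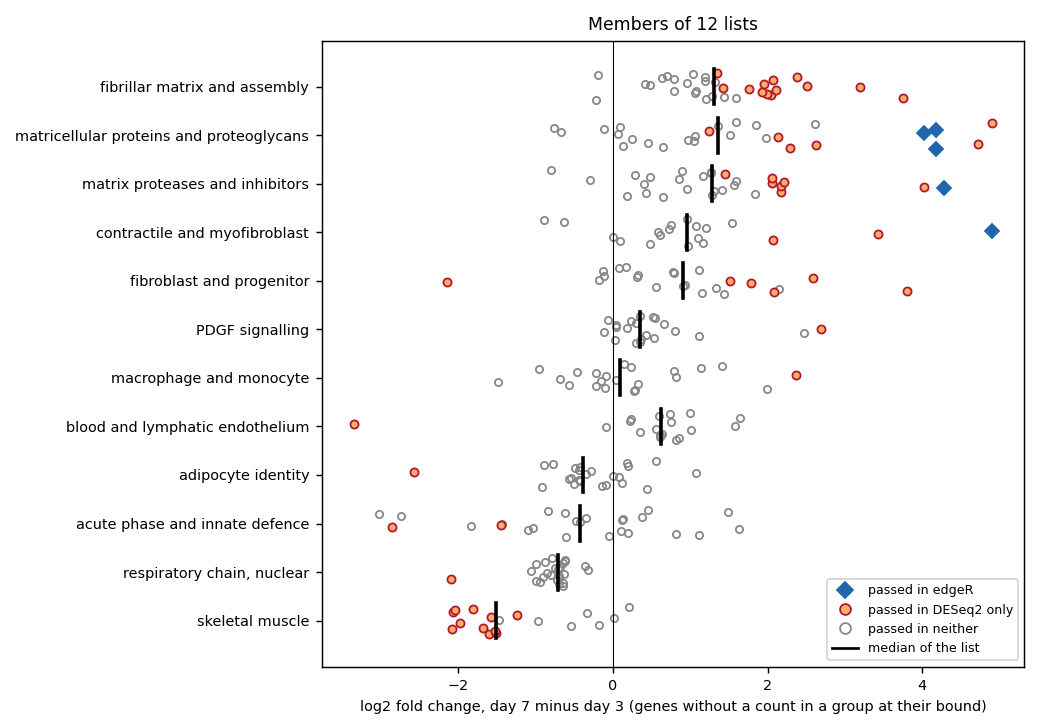
Each point is the log2 fold change of day 7 over day 3 for 1 member of a list, with the list's median as a black bar. Blue diamonds passed in edgeR, filled circles passed in DESeq2 only and open circles in neither. The 4 matrix and contractile lists at the top have medians from 0.95 to 1.37, and the skeletal muscle list at the bottom has a median of -1.52.

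Contractile and myofibroblast genes held Lrrc15 as their only call among 19, with a median of 0.95. Without overlap, 7 members lay above day 3 and 1 below, against 14.2% and 11.4% of all genes tested. The 1 below was Tpm2, a tropomyosin and the list's most abundant member, at 521 and 659 CPM at day 3 and at 236, 435 and 279 CPM at day 7 (log2 -0.90 ± 0.36 SE, edgeR adjusted p = 0.418). Tpm1, the next most abundant, was at 426 and 648 CPM and then at 277, 452 and 307 CPM. Acta2, the smooth muscle actin that defines myofibroblasts, was at 117 and 36.6 CPM at day 3 and at 113, 265 and 70.9 CPM at day 7 (log2 0.97 ± 0.59 SE, edgeR adjusted p = 0.557). Its days overlapped, and both were above uninjured skin at 15.0, 19.2 and 8.38 CPM. Cdh11, a cadherin of mesenchymal cells named after its values were seen, was at 5.14 and 5.24 CPM and then at 18.6, 28.3 and 18.8 CPM (edgeR adjusted p = 0.105, DESeq2 adjusted p = 0.000541). The list's summed level, most of it from Tpm1 and Tpm2 at day 3, was 1466 and 1832 CPM at day 3 and 1402, 2146 and 1174 CPM at day 7, with overlap. The median over members of their log2 level relative to each gene's mean, which weights members equally, did separate the days, at -0.422 and -0.648 against 0.421, 0.855 and -0.314.

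Fibroblast and progenitor markers, 23 in all, had a median of 0.90, with 0 calls in edgeR (9 at an unadjusted p under 0.05) and 5 higher and 1 lower in DESeq2. Crabp1, a cellular retinoic acid-binding protein, was at 1.23 and 4.17 CPM at day 3 and at 29.6, 58.4 and 32.8 CPM at day 7 (edgeR adjusted p = 0.144). Gpx3, a secreted glutathione peroxidase, was the most abundant member by far, at 23162 and 26017 CPM at day 3 and at 3495, 5174 and 7991 CPM at day 7 (log2 -2.15 ± 0.49 SE, edgeR adjusted p = 0.196). All day 7 libraries were below both day 3 libraries. Both Crabp1 and Gpx3 passed in DESeq2, and Crabp1 is named after its values were seen.

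PDGF ligands, receptors and adaptors, 21 genes, had a median of 0.35, with 19 of 21 values positive and 0 calls in edgeR. Without overlap, 4 members lay above day 3, a share near the 14.2% of all genes tested, and 0 below (11.4% of all). An unadjusted p under 0.05 in edgeR was reached by 1 member, against 11% of all genes tested. The median of the list's relative log2 levels was -0.263 and -0.189 at day 3 and 0.303, 0.205 and 0.025 at day 7. The days thus did not overlap on that measure. The receptor chain Pdgfra was at 12.1 and 27.4 CPM at day 3 and at 25.2, 21.6 and 8.50 CPM at day 7 (log2 -0.11 ± 0.52 SE, edgeR adjusted p = 0.954). Pdgfrb was at 10.7 and 21.8 CPM and then at 41.5, 32.6 and 12.1 CPM (log2 0.81 ± 0.54 SE, edgeR adjusted p = 0.595). For both receptors, day 7 replicate 3 was as low as day 3 replicate 1. The ligand Pdgfa was at 31.5 and 17.2 CPM and then at 43.0, 35.7 and 26.0 CPM. For the ligand Pdgfb, day 3 levels of 4.32 and 6.31 CPM were followed by 15.4, 14.3 and 5.27 CPM, also with overlap. Pdgfrl, a secreted receptor-like protein named after its values were seen, was the only member called by DESeq2, at 3.50 and 2.35 CPM and then at 12.8, 20.6 and 22.5 CPM (log2 2.69 ± 0.47 SE, edgeR adjusted p = 0.0766). TGF-beta signalling genes had a median of 0.61 over 25, with 0 calls by edgeR (8 at an unadjusted p under 0.05) or DESeq2. Of the 25, 10 lay above day 3 without overlap, against 14.2% of all genes tested. Wnt ligands, modulators and targets had a median of 1.07 over 22, with 0 calls in edgeR (9 at an unadjusted p under 0.05) and 4 higher in DESeq2. Among these, Sfrp2, a secreted Wnt modulator, was at 2.88 and 2.35 CPM and then at 35.7, 71.0 and 27.9 CPM (log2 4.11 ± 0.67 SE, edgeR adjusted p = 0.0557). Lef1, a Wnt target that hair matrix cells also express, reached 22.9 CPM in day 7 replicate 1 only and was at 2.24 and 0.359 CPM in the others, where Krt71 was low as well. Their relation was not tested.

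Of 24 genes that define adipocytes, 4 lay below day 3 in every day 7 library and 2 above, shares near those of all genes tested (11.4% and 14.2%). The median was -0.38, with 17 negative values and 0 calls in edgeR (3 at an unadjusted p under 0.05). Adipoq overlapped, with the levels given above (log2 -0.14 ± 0.43 SE, edgeR adjusted p = 0.927). Plin1, the coat protein of lipid droplets, was at 688 and 796 CPM at day 3 and at 359, 504 and 782 CPM at day 7, and Pparg, the nuclear receptor that adipocytes need to differentiate, went from 195 and 183 CPM to 96.8, 123 and 203 CPM. In both, day 7 replicates 1 and 2 were below day 3 and replicate 3 was level with it. Fabp4, a fatty acid carrier, was at 27973 and 19209 CPM and then at 21018, 22507 and 30925 CPM. Lep, which encodes leptin, was at 88.6 and 107 CPM and then at 120, 231 and 268 CPM, above day 3 in all 3 libraries but not past the test (log2 1.08 ± 0.44 SE, edgeR adjusted p = 0.422). Nnat, neuronatin, was the only member called in DESeq2, at 904 and 3205 CPM and then at 155, 430 and 453 CPM (log2 -2.57 ± 0.58 SE, edgeR adjusted p = 0.194). The list's summed level was 143370 and 117240 CPM at day 3 and 67031, 84964 and 149490 CPM at day 7. Day 7 replicate 3 was thus higher than both day 3 libraries, and fewer cells of a type and less RNA per cell cannot be told apart in bulk libraries.

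Lipid metabolism lists lay near or below the median of all genes: -0.19 for fatty acid and triglyceride synthesis (21 genes), -0.07 for lipolysis and lipid uptake (20) and -0.34 for fatty acid oxidation (20). Without day 3 replicate 1 the first of these medians was 0.26 and the second 0.03. In edgeR and DESeq2 0 members passed, and 1, 3 and 1 had an unadjusted p under 0.05 in edgeR. Nuclear-encoded respiratory chain genes were all on 1 side, with 24 of 24 values negative and a median of -0.72. Of the 24, 3 lay below day 3 in every day 7 library, a share near the 11.4% of all genes tested, and 0 passed in edgeR (11 at an unadjusted p under 0.05). Cox4i1, a core subunit of cytochrome oxidase, was at 3833 and 2006 CPM at day 3 and at 1528, 1596 and 2458 CPM at day 7. Cox7a1, the isoform of heart and skeletal muscle, was at 111 and 35.4 CPM and then at 14.3, 17.5 and 19.2 CPM, and it was the only member called in DESeq2 (adjusted p = 0.00209, against 0.196 in edgeR).

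Inflammatory cytokines and chemokines had a median of 0.70 over the 23 of 32 that passed the filter, with 0 calls in edgeR (3 at an unadjusted p under 0.05) and 1 lower in DESeq2. Il1b was at 0 and 5.02 CPM at day 3 and at 1.36, 2.71 and 1.08 CPM at day 7, so the 2 day 3 libraries enclosed those of day 7. Ccl2, a monocyte-attracting chemokine, was at 2.67 and 5.24 CPM and then at 6.68, 11.2 and 7.67 CPM (edgeR adjusted p = 0.556), and Il6 did not pass the expression filter. Acute phase and innate defence genes had a median of -0.42 over 25, with 0 calls in edgeR (4 at an unadjusted p under 0.05) and 2 lower in DESeq2. Without overlap, 5 members lay below day 3 and 2 above, against 11.4% and 14.2% of all genes tested. Saa3, serum amyloid A3, was at 1814 and 1288 CPM and then at 489, 1619 and 925 CPM, against 7.80 to 221 CPM in uninjured skin. Lcn2, lipocalin 2, which binds bacterial siderophores, was at 411 and 433 CPM at day 3 and at 22.1, 85.7 and 66.4 CPM at day 7 (log2 -2.86 ± 0.58 SE, edgeR adjusted p = 0.141, DESeq2 adjusted p = 2.97e-05). Lcn2 is named after its values were seen, and all its day 7 libraries were below both day 3 libraries. S100a8, the neutrophil calprotectin subunit, was at 32.3 and 63.8 CPM and then at 41.8, 46.9 and 24.7 CPM.

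Interferon response genes had a median of 0.67, with 22 of 23 values positive, yet 0 calls by edgeR (4 at an unadjusted p under 0.05) or DESeq2. In every day 7 library 12 of the 23 lay above day 3, against 14.2% of all genes tested. Immediate early genes had a median of 0.35 over 23, again with 0 calls and 4 at an unadjusted p under 0.05 in edgeR. Fos was at 36.4 and 19.4 CPM at day 3 and at 50.5, 26.5 and 18.4 CPM at day 7. Cell cycle genes had a median of 1.07, with 28 of 30 values positive and 0 calls in edgeR (7 at an unadjusted p under 0.05). Mki67, a marker of proliferating cells, was at 3.08 and 7.16 CPM and then at 33.7, 23.0 and 2.28 CPM, so day 7 replicate 3 was the lowest of the 5. Birc5, a mitotic survivin, was at 4.73 and 4.70 CPM and then at 29.3, 20.6 and 8.39 CPM, and it was the only member that DESeq2 called (adjusted p = 0.0215, against 0.275 in edgeR). Glycolysis and hypoxia genes (median -0.07 over 24) and the unfolded protein response (0.19 over 23) held 0 calls by either method, with 4 and 3 members at an unadjusted p under 0.05 in edgeR.

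**Figure D5:**
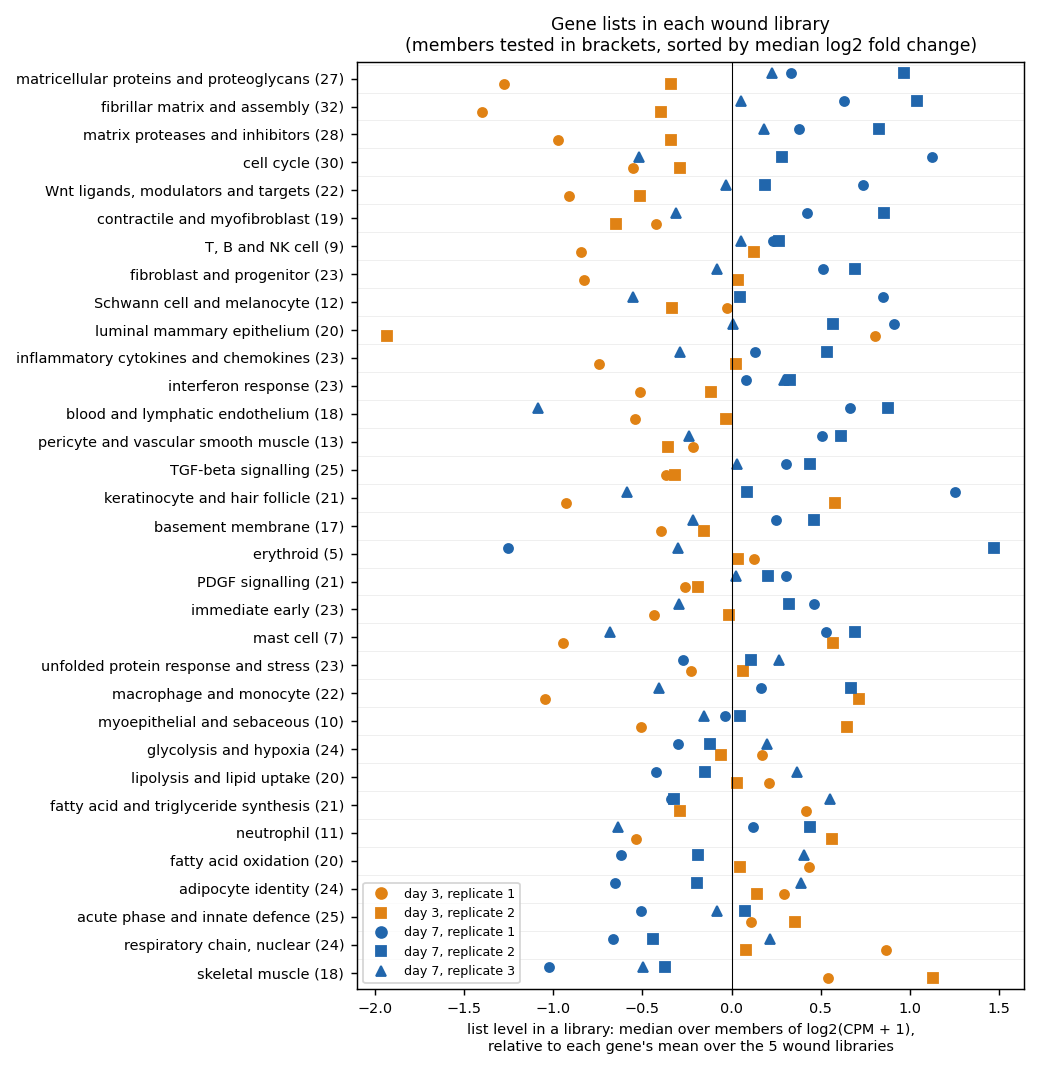
Level of each gene list in each of the 5 wound libraries: the median over its members of log2(CPM + 1) relative to each gene's mean over these libraries. Orange marks are day 3 and blue marks day 7, with circle, square and triangle for replicates 1, 2 and 3. In the matricellular, fibrillar matrix and protease lists the days separate, while in the adipocyte list day 7 replicate 3 lies above both day 3 libraries.

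Of the marker lists of other tissues and cell types, skeletal muscle moved most with the day. Its genes had a median of -1.52, the lowest of all lists. Of 18, 13 lay below day 3 in every day 7 library, against 11.4% of all genes tested. DESeq2 called 11 of them lower and edgeR 0 (13 at an unadjusted p under 0.05). Their summed level was 3719 and 6187 CPM at day 3 and 1130, 2175 and 1878 CPM at day 7, and no member was at 0 in a wound library. Acta1, skeletal muscle actin, was at 646 and 1357 CPM and then at 187, 385 and 415 CPM, and the fast troponin Tnnt3 at 798 and 1266 CPM and then at 199, 356 and 325 CPM. Tnni2, its partner troponin I, was at 438 and 618 CPM and then at 88.9, 157 and 137 CPM, and Myh4, a fast myosin heavy chain, at 162 and 274 CPM and then at 60.9, 61.7 and 43.6 CPM (edgeR adjusted p = 0.0533). Mybpc2, 1 of the 4 genes that fell, is a muscle gene, and Cox7a1 is expressed in muscle as well. The part that muscle RNA has in their values was not tested.

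Macrophage and monocyte markers had a median of 0.10 over 22. Their summed level was 469 and 1777 CPM at day 3 and 1181, 1808 and 883 CPM at day 7, so the days overlapped. Lyz2, lysozyme, was at 95.6 and 354 CPM and then at 336, 582 and 254 CPM, and only Gpnmb, a glycoprotein of lipid-laden macrophages and melanocytes, passed in DESeq2 (2.47 and 9.41, then 33.8, 33.7 and 27.9 CPM). Gpnmb is named after its values were seen, as are Krt71 and Lyve1. Mmp12 and Spp1, which macrophages also express, rose while this list's summed level overlapped between the days. The part of macrophage RNA in them was not tested. Neutrophil genes summed to 466 and 560 CPM at day 3 and 113, 201 and 119 CPM at day 7, and their median was -0.21 over 11. Lcn2, which adipocytes and epithelia also express, made up most of that sum at day 3.

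Endothelial and pericyte markers each had a median of 0.62, and the endothelial list summed to 324 and 438 CPM at day 3 and 704, 693 and 173 CPM at day 7. Pecam1, of endothelial junctions, was at 133 and 111 CPM and then at 204, 156 and 66.7 CPM, while Lyve1, of lymphatic vessels and some macrophages, was at 12.5 and 23.1 CPM and then at 2.38, 2.43 and 0.359 CPM (log2 -3.35 ± 0.75 SE, edgeR adjusted p = 0.188, DESeq2 adjusted p = 0.000368). Luminal mammary markers summed to 2009 and 143 CPM at day 3 and 1801, 1835 and 938 CPM at day 7, and Krt19 was at 362 and 4.28 CPM and then at 364, 382 and 167 CPM. Day 3 replicate 2 was thus the only wound library low in them. Keratinocyte and hair follicle markers summed to 1912 and 7612 CPM and then to 10499, 3250 and 2799 CPM, and Krt14, of basal keratinocytes, was at 328 and 1106 CPM and then at 1364, 626 and 441 CPM. The part of these cell types' RNA in the genes that rose or fell was not tested.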

How the data were processed

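Ribosome-associated RNA from 8 mouse skin libraries was sequenced, and samples were grouped by their titles. The authors deposited whole-number read counts for each gene, not normalised, with 1 column per library. They were produced by featureCounts 2.0.8, per the file headers. Per the submitters' processing notes, the tools were STAR 2.7.10b, featureCounts and DESeq2, with mm10 as build. How strand and multi-gene reads were handled is not given in the sources used here. Counts of overlapping genes are therefore uncertain. Gene length, which the authors deposited with the counts, was used for CPM per kilobase. Symbols came from GENCODE M21 and covered 52093 of the 53700 identifiers.

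Library sizes were scaled by the trimmed mean of M values. In edgeR 4.0.16 (R 4.3.3), the expression filter at a minimum count of 10 kept 18656 genes. A quasi-likelihood fit with 1 mean per group over all 8 libraries left 5 residual degrees of freedom, and day 7 was tested against day 3, two-sided, with Benjamini-Hochberg adjustment at 0.05. Per-library values are CPM after this scaling. The SE given with a log2 fold change is its absolute value divided by the square root of the test's F statistic. It was not estimated separately. A gene with 0 counts in a group was bounded with 3 counts per library, which covers counting error only. The shallowest library held 5308959 counts, where 3 counts are 0.617 CPM, so low genes are measured least precisely there. The scripts were tested on simulated data.

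The members, the 34 gene lists and the naming rule were chosen with earlier results of these data known. Genes were named when they were among the 12 largest rises or falls that passed, with at least 20 CPM in the higher group and no overlap between days; when they were on a fixed list of adipocyte, PDGF, matrix, inflammatory and cell cycle genes; when they had the smallest adjusted p or the highest level in a list; or when they passed without each of the 5 wound libraries in turn. C1qtnf2 and Sh2d4b lie below 20 CPM and are named to complete the genes called. Nnat, Cox7a1, Birc5, Myh4 and Lef1 met no part of this rule and are named after their values were seen. Elane is named as a neighbour of Prtn3. Alternatives were DESeq2 size factors, upper-quartile scaling, no filter, a minimum count of 50, the 5 wound libraries alone, the replicate number as a block, DESeq2 1.42.0, limma 3.58.1 voom with and without sample quality weights, and leaving out each library.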

Additional observations from a re-analysis of the deposited data

How the results depend on the processing

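The count of 12 genes higher and 4 lower at day 7 in edgeR became 16 and 8 with DESeq2 size factors, 15 and 11 with upper-quartile scaling, 369 and 203 with no filter, 12 and 5 at a minimum count of 50, and 11 and 1 in the 5 wound libraries alone. DESeq2 called 147 and 86, voom 6 and 1, and voom with sample quality weights 66 and 40. With the replicate number as a block, 95 and 31 were called. The labels do not say that the numbers pair samples, so the block has no basis in them. Correlations of same-numbered libraries ran from -0.104 to 0.235, and those of different-numbered ones from -0.243 to 0.22. Values for the 2 day 3 libraries mirrored each other (-0.104 and 0.104 with uninjured replicate 1), so these correlations cannot settle pairing. Leaving out 1 library gave 4 to 23 higher (4 without day 7 replicate 2, 7 without day 7 replicate 1, 23 without day 3 replicate 1) and 0 to 12 lower (0 without day 7 replicate 1, 12 without day 3 replicate 2). All 12 rises and 4 falls were also called with both scalings, no filter, the minimum count of 50, the block and DESeq2. The causes of these changes were not tested. Where an arm was left with 1 library, it was assumed to vary like the other groups.

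Medians of lists moved by more than the spread between replicates or changed sign as follows (log2). At a minimum count of 50 they were 1.47 for Wnt genes, 0.24 for inflammatory genes, 1.62 for T, B and NK cells and -0.18 for Schwann cells and melanocytes. With the block they were 1.51 for Wnt genes, -0.03 for acute phase genes, -0.37 for glycolysis and 1.35 for T, B and NK cells. With voom and quality weights they were -0.09 for acute phase genes and 1.50 for T, B and NK cells. Leaving out 1 library gave ranges of 0.90 to 2.08 (fibrillar matrix), 1.02 to 2.06 (matricellular), 0.88 to 1.84 (proteases), 0.51 to 1.50 (fibroblast), 0.72 to 1.95 (Wnt), 0.18 to 1.29 (inflammatory), -0.58 to -0.08 (acute phase), 0.31 to 0.96 (interferon), -0.36 to 0.04 (glycolysis), -0.53 to 0.26 (fatty acid and triglyceride synthesis), -0.35 to 0.06 (lipolysis) and -1.72 to -1.09 (skeletal muscle). For markers of other cells they were -0.57 to 1.39 (macrophage), -0.72 to 0.73 (neutrophil), -0.23 to 1.24 (mast cell), 0.43 to 6.05 (T, B and NK cell), -0.13 to 2.98 (luminal mammary), -0.23 to 1.37 (keratinocyte and hair follicle), -0.54 to 0.59 (myoepithelial and sebaceous), -0.13 to 0.98 (Schwann cell and melanocyte) and -0.96 to 0.84 (erythroid). The macrophage, neutrophil and mast cell medians took their highest values without day 3 replicate 2, and the luminal median without day 3 replicate 1. Of the 9 T, B and NK cell genes tested, 5 had 0 counts in day 3 replicate 1. Their median without day 3 replicate 2 thus depends on the prior count and is no measure of size.

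Genes named without a call changed direction under some settings. Fabp4 was at -0.02 with upper-quartile scaling and -0.04 with quality weights. Il1b was at 0.33 with the block, 0.57 with voom and 1.15 with quality weights, Pdgfra at 0.27 with the block and 0.06 with quality weights, and S100a8 at 0.04 with the block. Leaving out 1 library gave ranges of -0.64 to 0.13 for Adipoq, -0.17 to 0.36 for Fabp4, -0.33 to 0.70 for Fos, -1.54 to 6.99 for Il1b, -0.46 to 1.30 for Krt14, -0.25 to 6.14 for Krt19, -0.63 to 8.33 for Krt8, -0.58 to 0.61 for Pdgfra, -0.16 to 0.56 for Pecam1 and -0.77 to 0.23 for S100a8. Il1b had 0 counts in day 3 replicate 1, so its value without day 3 replicate 2 depends on the prior count and is no measure of size.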
